A study of Caenorhabditis elegans with 2 samples.

Results

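The 41 genes described here encode parts of the spliceosome and splicing factors of Caenorhabditis elegans. They were taken as a fixed list of gene symbols, all 41 were found in the Ensembl WBcel235 gene models, and they stand among 19985 annotated protein-coding genes. The data are ChIP-seq peak lists, which record the DNA recovered with the homeodomain protein CEH-91, from 2 biological replicates of whole young adults that form 1 group. The worms, strain RW12305, carry st12305[ceh-91::TY1::EGFP::3xFLAG] on chromosome III, a CRISPR insertion that tags the endogenous gene, were 62.5 hours old after synchronisation by L1 starvation, and were immunoprecipitated through GFP. Whole worms mix all tissues, so no peak can be placed in a cell type, and the deposited notes name 1 control alignment for both replicates. The labels give each replicate a sample of worms of its own and do not say whether these were grown independently.

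The spliceosome is built on each intron from small nuclear ribonucleoproteins (snRNPs), particles in which a ring of Sm proteins holds a small nuclear RNA. U1 and U2 snRNPs and their helpers recognise the splice sites, the U4/U6.U5 tri-snRNP joins them, and RNA helicases then remodel the complex through the steps of splicing. SR proteins, which carry arginine and serine repeats, bind exons and guide the choice of sites. In C. elegans many messenger RNAs also receive a short spliced leader by trans-splicing, and genes in operons share 1 promoter, so an annotated start need not be where transcription begins.

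A gene was counted as bound when the summit of a peak in a thresholded list (a listed peak) fell in its promoter window, from 1000 bp before a transcript start in the annotation to 200 bp after it. The signal of a peak is the authors' own value in arbitrary units, and its scale differs between lists, so it was read within a list. Each ranked peak also carries a global irreproducible discovery rate, low where a peak repeats between the inputs compared. Every listed peak has a rate of at most 0.01. The main list is the conservative one, made from the comparison of the replicates, with 1612 listed of 53026 ranked peaks. The list read here as that of pooled pseudoreplicates has 1716 of 50055, replicate 1 has 1180 of 35497, and replicate 2 has 974 of 37659. Read depth is unknown, since the lists hold no counts.

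CEH-91 peaks were listed at 13 of the 41 splicing genes, 10 of which encode SR or Sm proteins. The bound genes were mog-4, prp-8, prp-19, snr-1, snr-2, snr-3, snr-4, rsp-1, rsp-2, rsp-3, rsp-5, rsp-6 and rsp-7. The share bound was 31.7%, where 7.37% of all protein-coding genes were bound in the same list. The pooled list held the same 13 genes, with 7.65% of all genes bound. The list of replicate 1 held 12 of them, with a background of 6.06%, and the list of replicate 2 held all 13, with a background of 5.32%. The 1 gene that differed was snr-1, whose peak in replicate 1 had a rate of 0.0203. The other 28 genes were bound in none of the 4 lists. These shares are descriptions with no test, because the genes were chosen with earlier results of these data known.

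The 13 bound genes rested on 11 separate peaks, since snr-3 and rsp-5 shared 1 peak and rsp-1 and rsp-2 shared another. The median signal of the bound genes was 159, close to the 149 of all bound protein-coding genes. In the single replicates it was 102 against 109, and 64.8 against 70.9. The share bound was above the background in each list, while the signals of the bound splicing genes were near those of all bound genes. Their ranks among the 1612 listed peaks ran from 3 to 786, so every one lay within the stronger 48.8% of the list. The share of all bound protein-coding genes in that span was not computed. Their median signal of 149 was also above the 123 of all listed peaks.

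**Figure D1:**
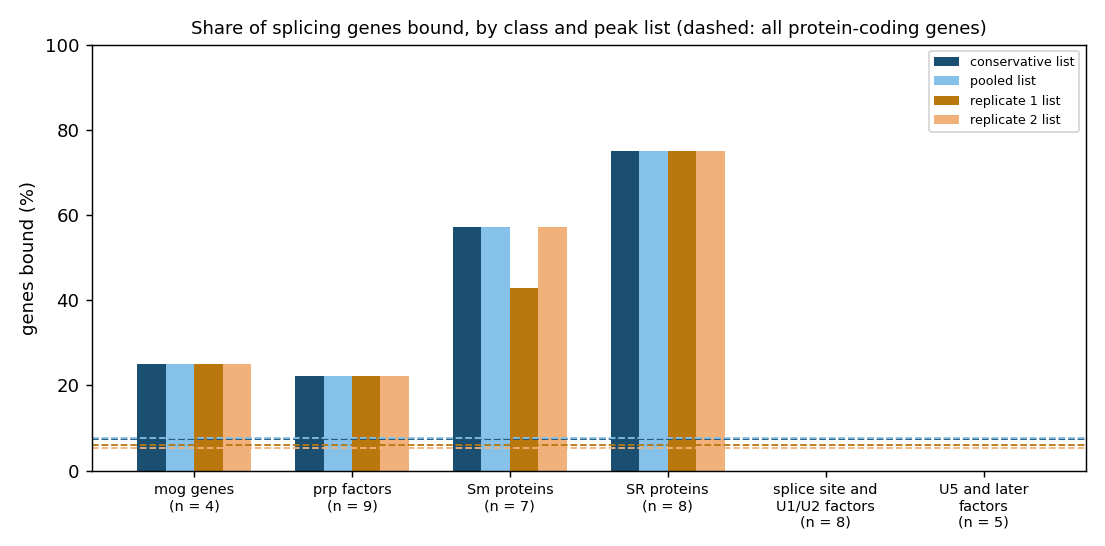
Percent of genes bound (vertical axis) in each class of splicing gene, with 1 bar for each of the 4 peak lists, and dashed lines for all protein-coding genes in the same lists. SR protein genes stand at 75% in every list, Sm protein genes at 42.9% to 57.1%, and the 2 classes on the right have no bar because none of their genes was bound.

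The sequences at these summits are shown for the promoters on which most of the results below turn, as the summit base with 50 bp on either side, on the plus strand of ce11 (WBcel235), from the RefSeq genome. Capitals mark matches to CTGCGTC or CGAGACC on either strand. The first of these was among 5 short sequences looked for in every window, and no source independent of these data is given for that choice. The second, CGAGACC, was taken from the other listed promoter peaks, after their sequences were seen, as the 7-base sequence whose share of windows most exceeded that at promoter peaks that did not pass.
The peak at mog-4, the strongest of the group, at chrII:14561805-14561905, held neither sequence.
mog-4: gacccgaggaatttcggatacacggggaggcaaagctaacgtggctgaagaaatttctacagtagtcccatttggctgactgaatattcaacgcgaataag
The peak between the paired SR protein genes, at chrII:11453133-11453233, held neither.
rsp-1/rsp-2: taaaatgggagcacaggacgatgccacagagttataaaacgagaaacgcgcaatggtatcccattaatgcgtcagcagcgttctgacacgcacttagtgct
The peak between an Sm and an SR protein gene, at chrII:6489895-6489995, held CGAGACC.
snr-3/rsp-5: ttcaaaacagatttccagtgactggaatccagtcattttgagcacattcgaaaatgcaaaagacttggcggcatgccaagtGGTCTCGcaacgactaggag
The peak between rsp-7 and the tri-snRNP gene snu-13, at chrII:10658854-10658954, held both.
rsp-7/snu-13: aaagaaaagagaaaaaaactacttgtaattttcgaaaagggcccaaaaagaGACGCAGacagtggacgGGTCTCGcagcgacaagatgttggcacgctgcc
The strongest SR protein peak, at chrIV:7791353-7791453, held CTGCGTC.
rsp-6: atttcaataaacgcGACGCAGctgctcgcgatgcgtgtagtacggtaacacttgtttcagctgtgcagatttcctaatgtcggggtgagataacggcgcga
The peak at the SmD3 gene, at chrIV:17087616-17087716, held CTGCGTC.
snr-1: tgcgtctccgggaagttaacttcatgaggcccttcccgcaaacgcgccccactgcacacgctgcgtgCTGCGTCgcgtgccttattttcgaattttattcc

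Of the 11 windows, CTGCGTC was in 3 (snr-1, rsp-6 and rsp-7, 27.3%). It was in 5.8% of the windows at 1103 other listed promoter peaks and in 1.88% at 14229 promoter peaks that did not pass. CGAGACC was also in 3 windows (snr-2, the snr-3 and rsp-5 peak, and rsp-7), against 16.9% and 2.16%. TAATTA, a core that many homeodomains prefer, was in 0 of 11 windows, against 2.18% of other listed windows and 3.56% of those that did not pass. GAGAGA was in 0 against 11.2% and 7.94%. TTTCGCGC was in 0 against 7.07% and 0.618%, and CGCGAAA, whose reverse complement lies within TTTCGCGC, in 0 against 13.3% and 1.83%. Median GC content was 47.5% in the splicing gene windows (range 45.5 to 56.4), 44.6% in the other listed windows and 39.6% in those that did not pass. With 11 windows, a share moves by several percentage points for each window, and a missing match says only that these letters are not in that window.

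The mog genes, named for masculinisation of the germ line, are needed for the switch from sperm to oocytes in the hermaphrodite. Of the 4 listed here, mog-1, mog-4 and mog-5 encode DEAH-box splicing helicases, while mog-2 encodes a U2 snRNP protein and no helicase. Only mog-4, the Prp2 orthologue that acts before the first catalytic step, was bound. This was 25% of the class, where 7.37% of all protein-coding genes were bound. The mog-4 peak (chrII:14561701-14562010) had a signal of 1119 in the conservative list, 718 in replicate 1 and 407 in replicate 2, and it ranked as the 3rd strongest in all 4 lists. The summit lay 256 bp upstream of the mog-4 start in the conservative list and 264 and 256 bp upstream in the replicates. No other annotated start lay in the window.

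The other mog genes carried weak ranked peaks in the conservative comparison, from which the signals and rates below are taken. Each also had a ranked summit in the list of 1 replicate and not of the other. At mog-5, the Prp22 orthologue, which releases the spliced product, the strongest summit had a signal of 31.7 and a rate of 0.603, and replicate 1 had no ranked summit there. At mog-1, the Prp16 orthologue of the second step, the values were 26.6 and 0.492, with no ranked summit in replicate 2. At mog-2 they were 18.4 and 0.794, with none in replicate 1. The signal at mog-4 was thus far above that of all 3 others, in every list in which they had one.

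Of the 9 prp genes, prp-19 and prp-8 were bound (22.2%, where 7.37% of all protein-coding genes were bound). prp-19 encodes the ubiquitin ligase at the heart of the Prp19 complex, which joins as the spliceosome is activated. Its peak (chrIII:5172518-5172802) had a signal of 569 in the conservative list, 351 in replicate 1 and 219 in replicate 2, with ranks of 49, 56 and 43. The summit lay 608 bp upstream of the prp-19 start but 67 bp upstream of K10D2.5 on the other strand, and 786 bp upstream of emb-1 beyond it. prp-8 encodes the U5 scaffold that holds the catalytic centre. Its peak (chrIII:8163860-8164169) was weaker, with 125, 77.8 and 47.6, and its summit lay 358 bp upstream of prp-8 and 632 bp upstream of bath-42 on the other strand.

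Of the other 7 prp genes, 4 had a ranked summit in the conservative comparison, with signals from 24.3 to 45.6. The highest was at prp-31, a U4/U6 snRNP protein gene, with 45.6 and a rate of 0.801. At prp-6, a tri-snRNP bridging protein gene, the signal was 37.3, at prp-4 (U4/U6) it was 34.1, and at prp-21, whose product is the SF3A1 subunit of U2, it was 24.3. The other 3 had no ranked summit in the window in that comparison, namely prp-3 (U4/U6), prp-17, a second-step factor, and prp-38, which acts in activation. Such values are near the median of 35.6 over all protein-coding genes with ranked summits only.

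Sm proteins form the ring of the spliceosomal snRNPs, and 4 of their 7 genes were bound (57.1%, background 7.37%). These were the genes for SmD3 (snr-1), SmB (snr-2), SmD1 (snr-3) and SmD2 (snr-4). The strongest was snr-4 (chrV:11980050-11980135), with a signal of 224 in the conservative list, 129 in replicate 1 and 104 in replicate 2. At snr-1 (chrIV:17087511-17087820) the values were 159, 87.5 and 64.8, and this peak passed in replicate 2 (rate 0.000394) but not in replicate 1. At snr-2 (chrI:13338859-13339168) they were 136, 83.6 and 50.8, and at snr-3 (chrII:6489790-6490099) 125, 73.9 and 48.9. The 4 signals lay within a narrow span, with a median of 147, near the median of all bound genes.

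The genes for the other 3 ring proteins, snr-5 (SmF), snr-6 (SmE) and snr-7 (SmG), carried ranked summits that did not pass. At snr-6 the signal was 46.1 in the conservative comparison, 37.8 in replicate 1 and 18.6 in replicate 2. At snr-7 it was 39.7, 26.2 and 24.1. At snr-5 it was 23.7 and 24.7, with no ranked summit in replicate 2. Over all protein-coding genes the median signal was 149 where bound and 35.6 where ranked only, so the gap between these genes and the 4 bound ones is not a result about the ring. In replicate 1 the unlisted snr-1 peak, at 87.5, was above the listed peaks of snr-2 and snr-3, so signal did not separate listed from unlisted there.

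Of the 8 SR protein genes 6 were bound (75%, background 7.37%), the same 6 in all 4 lists, the highest share of the classes under this promoter window. Given to the nearest protein-coding start alone, 2 of 8 (25%) stayed, below the Sm genes at 28.6%, and with the nearest start of any kind 2 of 8 stayed, level with the mog genes at 25%. Under the protein-coding rule rsp-2 was lost to rsp-1, rsp-5 to snr-3 and rsp-7 to snu-13, which are splicing genes themselves. rsp-3 was lost to spin-4, which is not one. The strongest SR gene peak was at rsp-6 (chrIV:7791317-7791488), with a signal of 306 in the conservative list, 179 in replicate 1 and 119 in replicate 2. Its summit lay 174 bp upstream of the start and no other annotated start lay in the window. rsp-1 and rsp-2 shared a peak (chrII:11453028-11453337) of 170, 106 and 65.6. At rsp-7 (chrII:10658749-10659058) the values were 152, 97.7 and 54.8.

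At rsp-3 (chrIII:12688025-12688334), the orthologue of the human splicing factor SF2/ASF, the signals were 135, 79.2 and 56. rsp-5 shared the peak of snr-3, with 125, 73.9 and 48.9. The 2 unbound genes were rsp-4, the orthologue of SC35, and rsp-8, related to the Tra2 splicing activators. At rsp-8 the strongest summit had a signal of 54.7 and a rate of 0.24, and at rsp-4 of 48.2 and 0.204. A listed peak of signal 93.2 lay 1288 bp upstream of rsp-4, outside the window.

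**Figure D2:**
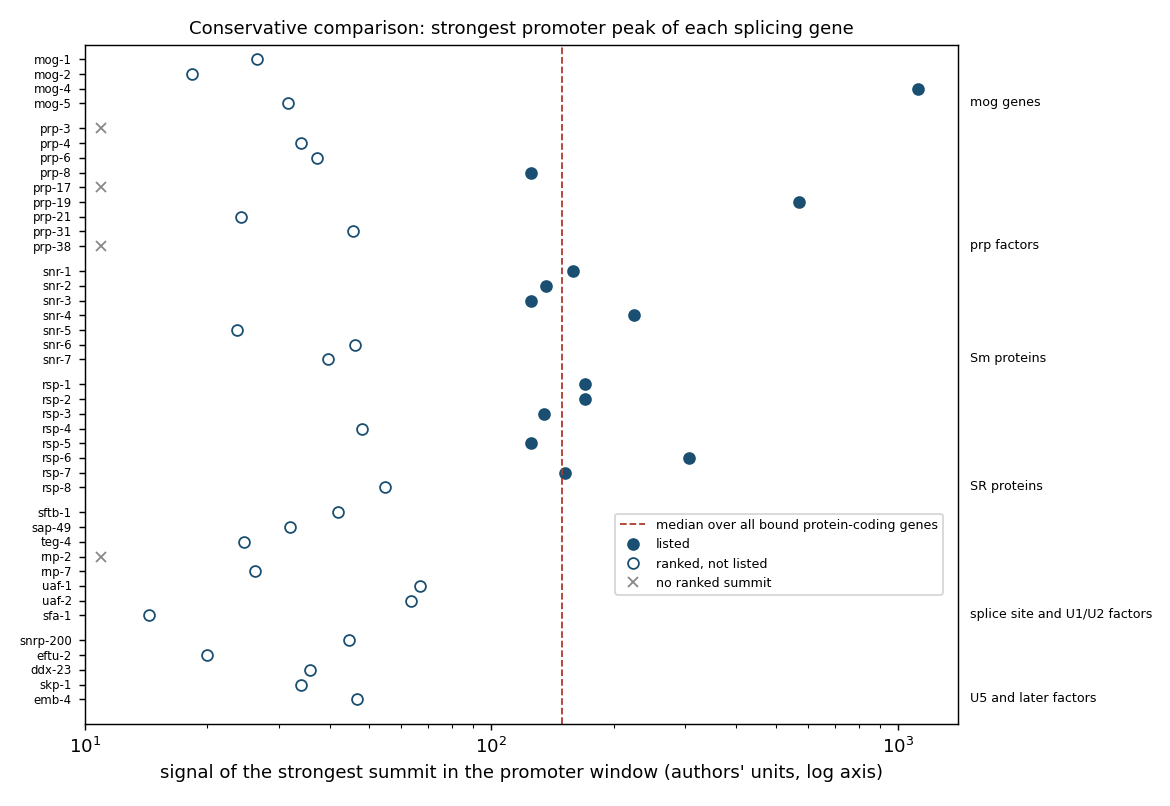
Signal of the strongest summit in the promoter window (horizontal log axis, authors' units) for each of the 41 genes in the conservative comparison, filled where listed, open where ranked only, and a cross at the left edge where there is no ranked summit. The dashed line is the median of all bound protein-coding genes, 149. Filled points run from 125 to 1119, open points from 14.4 to 66.7, and listed peaks are the stronger over all genes as well.

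Of the 8 genes grouped here as factors that first recognise splice sites, 0 were bound in each list. These were the U1 snRNP protein genes rnp-2 and rnp-7, the SF3B subunit genes sftb-1, sap-49 and teg-4, the U2AF genes uaf-1 and uaf-2, and sfa-1, which encodes the branch point binding protein. The strongest ranked summit was at uaf-1, with a signal of 66.7 in the conservative comparison, where its rate was 0.802. In replicate 1 it had a signal of 55.2 and a rate of 0.0365, the lowest at the strongest summit of any of the 28 unbound genes in the 4 comparisons. That summit lay 34 bp upstream of the gene's first start. In replicate 2 the strongest summit had a signal of 13.2 and lay 38 bp downstream of a different uaf-1 transcript start, inside the gene. The strongest peaks of the replicates were thus not the same, and weaker summits there were not compared. At uaf-2 the signal was 63.4, at sftb-1 42, at sap-49 32, at rnp-7 26.2, at teg-4 24.7 and at sfa-1 14.4. rnp-2 was the only one of the 41 genes with no ranked summit in any of the 4 comparisons. Outside the 41 genes, the U1 factor gene prp-40 was bound, with a signal of 150 in the conservative list.

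The 5 genes grouped here as U5 and later factors were also unbound in every list. They were snrp-200 (the Brr2 helicase that unwinds U4/U6), eftu-2 (the U5 GTPase), ddx-23 (the Prp28 helicase), skp-1 (SKIP) and emb-4 (the Aquarius helicase). Their conservative signals were 46.7 at emb-4, 44.6 at snrp-200, 35.8 at ddx-23, 34 at skp-1 and 20 at eftu-2. A listed peak of signal 95.5 lay 1137 bp upstream of skp-1, outside the window. Classes of 5 and 8 genes are too small for 0 bound genes to be told apart from the background of 7.37%. The grouping also leaves out prp-8, the U5 scaffold gene, and prp-19 and mog-4. Those genes were counted in the prp and mog classes and were bound, so the 0 does not cover all U5 and later factors.

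Ranked peaks, as opposed to listed ones, lay at most of the genes. In the conservative comparison 37 of 41 (90.2%) had a ranked summit in the window, where 52% of all protein-coding genes had one. Of those 37, 13 (35.1%) were bound, where 14.2% of protein-coding genes with a ranked summit were bound. The 24 genes with ranked summits only had a median signal of 35, and all protein-coding genes of that kind 35.6. In replicate 1 the same medians were 25.3 (19 splicing genes, with snr-1 among them) and 26.6. In replicate 2 they were 18.9 (16 splicing genes) and 16.7. The splicing genes with ranked summits only, a set that differs by comparison, therefore sat at the ordinary level of unlisted promoter peaks in all 3 comparisons. A ranked summit in both replicates was found at 11 of the 28 unbound genes (39.3%), and at 25.6% of all unbound protein-coding genes. Any summit in the window counted, so the replicates need not have held the same peak. At uaf-1 and rsp-8, for example, their strongest summits lay at different places.

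The replicates ordered the bound splicing genes alike. Over the 11 separate peaks Spearman's rho of the signals was 0.945, a description over peaks that share their libraries and control, with no p-value. These peaks were listed because they repeated between the same replicates. Their agreement in order and in summit position was thus partly set by that choice. Signal was higher in replicate 1 at every one of the 11, by a median of 0.69 on the log2 scale (range 0.30 to 0.84). Over 1469 bound protein-coding genes the same offset was 0.74, and its 5th and 95th percentiles were 0.06 and 1.36, so no splicing gene stood apart from the offset between the libraries. The smallest offsets were at snr-4 (0.30) and snr-1 (0.43) and the largest at rsp-7 (0.84) and mog-4 (0.82). Summits of the replicates lay a median of 8 bp apart, with 58 bp at prp-8 and 48 bp at snr-2 the widest.

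**Figure D3:**
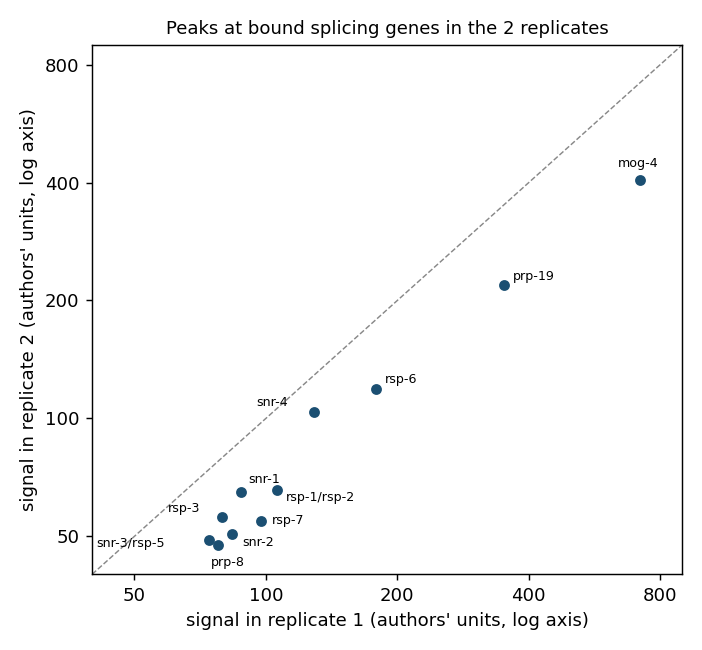
Signal in replicate 1 (horizontal) against replicate 2 (vertical), both on log axes in the authors' units, for the 11 separate peaks at bound splicing genes, with a dashed line at equal values. All points lie below the line, from the snr-3 and rsp-5 peak at 73.9 and 48.9 to mog-4 at 718 and 407.

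Bound splicing genes mostly shared their promoter with a gene on the other strand. Another protein-coding start on the opposite strand lay on the peak of 10 of the 13 genes (76.9%), where 828 of 1473 bound protein-coding genes (56.2%) had one. Genes were counted, so the peak of rsp-1 and rsp-2 and that of snr-3 and rsp-5 each entered once per gene. All bound genes were counted in the same way. All 13 summits lay upstream of the gene, by 174 to 608 bp with a median of 258 bp, and the median over all bound genes was 260 bp. At 3 of the 11 peaks the window held protein-coding starts of a pair of splicing genes, 1 on each strand. The summit lay 179 bp upstream of rsp-1 and 228 bp upstream of rsp-2, whose starts are 407 bp apart. It lay 184 bp upstream of snr-3 and 220 bp upstream of rsp-5, whose starts are 404 bp apart. It lay 302 bp upstream of rsp-7 and 278 bp upstream of snu-13, which encodes a protein that binds U4 RNA, with 580 bp between the starts. In each of these pairs the summit sat near the middle, so its position does not favour 1 gene of the pair. At the last of them the nearest start was that of neither gene but of M28.13, a noncoding RNA gene on the strand of rsp-7, whose start lay 7 bp from the summit.

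At other bound genes the neighbour's start was much the nearer. The summit at snr-2 was 383 bp from its start but 83 bp from that of W08E3.4, and the summit at snr-1 was 383 bp from its start and 228 bp from that of snx-13. At rsp-3 the distances were 258 bp and, to the transporter-like gene spin-4, 138 bp. The summit at snr-4 lay 8 bp inside T11F9.15, a gene annotated as a small nuclear RNA on the opposite strand, and 403 bp upstream of snr-4. Only at 6 of the 13 genes (46.2%) was the gene's own start the nearest protein-coding start, where this held for 69.9% of all bound genes. At rsp-2, rsp-5 and rsp-7 the nearest protein-coding start was that of another splicing gene. At prp-19, snr-1, snr-2 and rsp-3 it was that of a gene outside both splicing lists. Given to the nearest protein-coding start alone, 6 of 41 genes stayed bound (14.6%, background 5.25%), namely mog-4, prp-8, snr-3, snr-4, rsp-1 and rsp-6. Given to the nearest start of any kind, the same genes without snr-4 stayed (12.2%, background 4.63%).

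**Figure D4:**
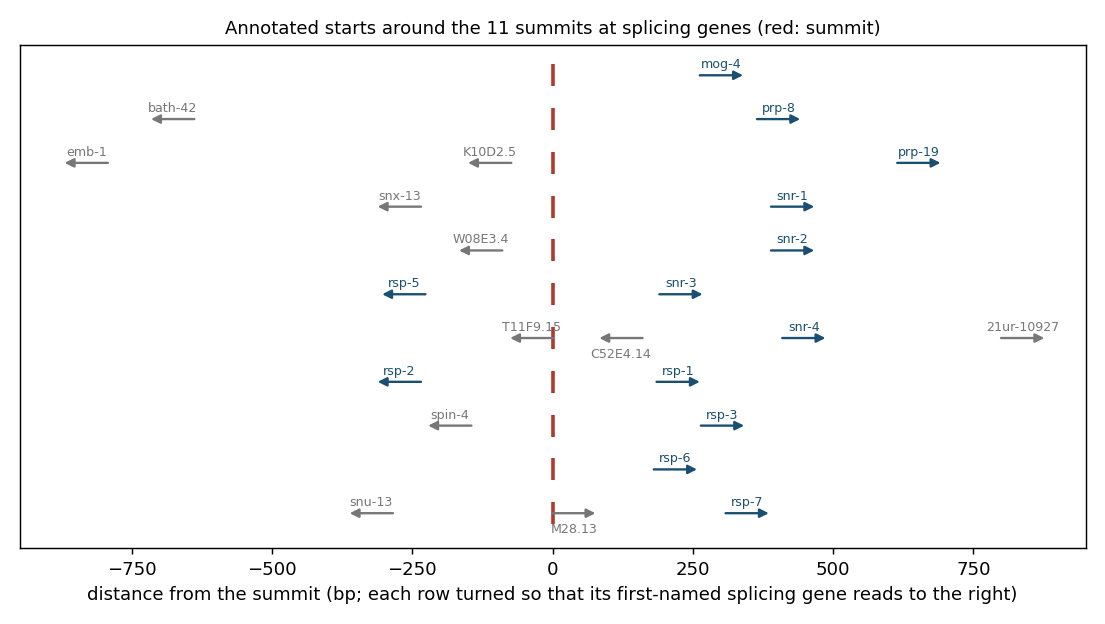
Annotated starts within the promoter window of each of the 11 summits at splicing genes, plotted by distance from the summit in bp (horizontal axis), 1 row per summit, with arrows for the direction of transcription, blue for the 41 genes and grey for others. The rsp-1 and rsp-2, snr-3 and rsp-5, and rsp-7 and snu-13 starts flank their summits on both sides, at 179 to 302 bp.

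Unbound splicing genes often lay close behind another gene on the same strand. A protein-coding gene on the same strand ended within 500 bp upstream of 12 of the 28 unbound genes (42.9%) and of 1 of the 13 bound genes, rsp-6. Over all protein-coding genes the shares were 20.6% of the unbound and 15.1% of the bound. Such runs are close neighbours by position, and whether they are operons was not tested. For 5 of the 12, the first gene of the run was bound, where this held for 14.7% of such unbound genes overall. These were prp-38 behind plrg-1 (signal 224), rnp-7 behind syf-2 (166), prp-3 behind smrd-1 (135), ddx-23 behind the chaperonin gene cct-6 (107) and skp-1 behind the survivin gene bir-1 (95.5). In the first 2 the gene in front also encodes a splicing protein, since PLRG-1 and SYF-2 belong to the Prp19 complex and its partners. The genes uaf-2 and sfa-1 lay in 1 such run, with cyn-13 between them, and its first gene, uaf-2, was not bound.

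Splicing genes outside the 41 were bound at a share nearer to that of the 41 than to the background. Of 83 other genes of the pathway that were looked for, 80 were found. In the conservative list 20 (25%) were bound, with a median signal of 161, where 7.37% of all protein-coding genes were bound. The pooled list held 19 (23.8%, background 7.65%), replicate 1 held 17 (21.2%, background 6.06%) and replicate 2 held 15 (18.8%, background 5.32%). By group, 6 of 20 splicing regulators and kinases were bound, 5 of 18 genes of the Prp19 complex and of catalysis, and 3 of 6 of snRNP assembly and trans-splicing. The tri-snRNP had 2 of 10, the exon junction complex and export 2 of 8, other U1 and U2 factors 1 of 10, and LSM genes 1 of 8. The shares of the U1 and U2 factors (10%) and of the LSM genes (12.5%) were near the background of 7.37%.

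The strongest of these peaks was at smn-1, the worm orthologue of the gene lost in spinal muscular atrophy, whose product loads Sm rings onto small nuclear RNA. It had a signal of 661 in the conservative list, 406 in replicate 1 and 246 in replicate 2, and shared its window with the kinesin gene klp-16. sna-2, a gene of the spliced leader snRNP, followed with 390, 245 and 143, and sna-1, of the same particle, had 81.8 and was in no other list. The export adaptor gene aly-2 had 269, 169 and 99.9. The peaks of smn-1, sna-2 and aly-2 were thus listed in both replicates, and that of sna-1 in neither.

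Among genes that act with SR proteins, the SR protein kinase gene spk-1 had a signal of 186 and the SRm160 orthologue rsr-1 had 189. The hnRNP genes hrpk-1 (180), hrpr-1 (160) and hrpa-1 (139) were bound as well, the last in replicate 2 but not in replicate 1. Of the Prp19 group, plrg-1 had 224, syf-2 166, the Prp43 helicase gene ddx-15 142, ccdc-12 105 and cdc-5L 98.2. Other bound genes were lsm-1 (161), snu-13 (152), the U1 factor gene prp-40 (150), the helicase gene hel-1 (138) and smu-1 (119). Of these, cdc-5L was listed in neither replicate, and syf-2, ccdc-12 and smu-1 in replicate 1 alone. Several peaks of the wider list also had starts of other genes in the window, among them those at aly-2, sna-2, lsm-1, prp-40, spk-1 and ddx-15. Given to the nearest protein-coding start alone, 13 genes of the wider list stayed bound (16.2%, background 5.25%). With the nearest start of any kind, 10 stayed (12.5%, background 4.63%).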

How the data were processed

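The authors deposited ranked and thresholded peak lists on ce11 (WBcel235) for each replicate and for each of 2 whole-series comparisons. The signal per peak is the deposited value, and each ranked peak has a deposited −log10 of its global rate. No aligner or peak caller is named in the sources used here. In the conservative comparison 59.4% of the inputs had coordinates of the replicates' own peaks, against 0.000999% in the other. The former is read as comparing the replicates and the latter as pooled pseudoreplicates, and no file states this. All peak ends lay within the chromosome lengths of RefSeq WBcel235. Starts came from Ensembl release 115 and sequence from RefSeq. Counts, medians and distances were computed with Python 3.11.15 and NumPy 2.4.6, and assignment was tested on simulated summits. No test was run. The genes and lists were chosen with earlier results of these data known. All 41 genes are accounted for, the bound ones and the strongest unbound ones with values, and the bound genes of the wider list are named, except 1 that is not reported here. Depth is unknown. The classes beyond the mog, prp, Sm and SR genes, the short sequences and the same-strand runs are descriptions only. Of the short sequences, CGAGACC was chosen after seeing the data.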

Additional observations from a re-analysis of the deposited data

How the results depend on the processing

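Over 9 alternatives (the pooled list, each replicate alone, a rate of 0.001, a narrower and a wider promoter, the nearest start of any kind or of protein-coding genes only, and any base of the peak in the window), 64 of 81 recomputed values stayed within 1.5 times of the main count, or within 1 SD of the replicates for the median signal. Giving each summit to its nearest start of any kind left 5 of the 41 genes (1 mog, 1 prp, 1 Sm and 2 SR genes) and 10 of the wider list. With the nearest protein-coding start 6 stayed (1 mog, 1 prp, 2 Sm and 2 SR genes) and 13 of the wider list, and the median signal of the 6 was 197. The promoter of 500 bp upstream and 100 bp downstream dropped prp-19, leaving 1 prp gene. That of 2000 bp upstream and 500 bp downstream gave 16 genes, adding rsp-4, rnp-7 and skp-1, and so 1 splice site factor and 1 later factor. The peaks added at rnp-7 and skp-1 were those at syf-2 and bir-1, the genes in front of them on the same strand. Any base in the window added skp-1 (1 later factor). With 1 replicate left out, the median signal was 64.8 to 102, on the scale of each library, and the bound genes numbered 12 to 13. No paired analysis was possible because both samples belong to 1 group. Read depth is unknown, so the lack of a listed peak does not show a lack of binding.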
